A study of Mus musculus with 6 samples.

Results

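The genes examined here were 10 transcription factors that mark mesenchymal identity or drive epithelial-mesenchymal transition (EMT), the change by which epithelial cells lose their junctions and become motile. They were Twist1, Twist2, Tcf4, Prrx1, Snai1, Snai2, Zeb1, Zeb2, Runx1 and Runx2, chosen by name from the 53801 genes of the count table. All 10 passed the filter on low counts, which kept 15133 genes.

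RNA was sequenced from stromal cells sorted from MO5 tumors, which grow under the skin of C57Bl/6 mice from a B16 melanoma line that carries ovalbumin. The cells were gated as negative for CD45 and CD31 and positive for PDPN and PDGFRα. There were 3 libraries from ADAM12-DTR mice (genotype DTR+, called DTR) and 3 from non-transgenic littermates (genotype DTR-, called Ctrl), and both groups received diphtheria toxin (DT). The comparison asks what was expressed in the sorted PDPN+PDGFRα+ cells after a treatment meant to deplete ADAM12+ cells. In ADAM12-DTR mice the DT receptor is made from a bacterial artificial chromosome that carries the Adam12 promoter, so DT can kill only cells in which that transgene is active, and the libraries do not tell survivors from cells that arose later. The labels give no age or sex, and they number the libraries 1 to 3 in each group without saying that each came from a separate mouse. If they did not, the p-values given here measure technical spread only.

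Twist, Snail and Zeb proteins bind E-boxes, the letters CANNTG, and the zinc fingers of the Snail and Zeb families read the form CAGGTG in the promoters of junction genes such as Cdh1, which they silence. Twist1, Twist2 and Prrx1 shape limb, skull and skin mesenchyme in the embryo and stay active in many fibroblasts. Runx proteins bind TGTGGT with the shared partner Cbfb, and they govern blood formation (Runx1) and bone formation (Runx2), while Tcf4 is an E protein that pairs with Twist and other basic helix-loop-helix factors.

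The 250 bases before the transcription start are shown for Runx1, whose groups were the only ones not to overlap, for its paralog Runx2 and for Snai1, to show which of these letters lie there. They come from RefSeq on GRCm38.p6, and 11 windows of 7 of the 10 genes were used here. Each runs from 5′ to 3′ on the strand of its gene, with E-boxes (CANNTG) and Runx letters (TGTGGT or its reverse complement ACCACA) in capitals. In Runx2 the capitals join a Runx motif and an E-box that overlap.
Runx1, distal start, chr16:92826075-92826324, minus strand: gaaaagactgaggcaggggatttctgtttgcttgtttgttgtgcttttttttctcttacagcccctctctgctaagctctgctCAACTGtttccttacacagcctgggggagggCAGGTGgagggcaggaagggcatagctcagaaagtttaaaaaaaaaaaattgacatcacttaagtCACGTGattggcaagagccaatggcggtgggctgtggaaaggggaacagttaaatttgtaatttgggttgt
Runx1, proximal start, chr16:92697330-92697579, minus strand: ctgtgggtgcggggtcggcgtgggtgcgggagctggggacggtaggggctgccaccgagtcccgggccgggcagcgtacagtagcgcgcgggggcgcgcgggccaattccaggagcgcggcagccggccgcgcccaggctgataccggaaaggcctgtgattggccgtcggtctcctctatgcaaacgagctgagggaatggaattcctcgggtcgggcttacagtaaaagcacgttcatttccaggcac
Runx2, chr17:44814628-44814877, minus strand: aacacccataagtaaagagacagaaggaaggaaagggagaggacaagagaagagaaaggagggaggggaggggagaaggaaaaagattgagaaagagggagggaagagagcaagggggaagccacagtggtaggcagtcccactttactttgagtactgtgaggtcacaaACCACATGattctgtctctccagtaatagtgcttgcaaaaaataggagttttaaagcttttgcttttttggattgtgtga
Snai1, chr2:167537945-167538194, plus strand: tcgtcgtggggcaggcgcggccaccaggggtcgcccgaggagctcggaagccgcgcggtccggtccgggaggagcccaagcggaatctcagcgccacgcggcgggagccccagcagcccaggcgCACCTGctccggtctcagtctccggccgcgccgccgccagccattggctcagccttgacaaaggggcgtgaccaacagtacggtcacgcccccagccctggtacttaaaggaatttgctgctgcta
The distal Runx1 window held 3 E-boxes, of which 1 was CAGGTG, and the proximal Runx1 window held 0. The Runx2 window held 1 E-box and 1 Runx motif, and the Snai1 window held 1 E-box, CACCTG, which is CAGGTG read on the other strand. Searched on both strands, the Twist1, Twist2 and Prrx1 windows and all 4 Zeb2 windows held 0 matches to these letters. Among 32851 RefSeq windows of the same length, 66.2% held an E-box, 17.2% held CAGGTG or CACCTG, which are also E-boxes, and 14% held a Runx motif. A match is only a run of letters, and binding was not measured here.

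No gene of the 10 differed between DTR and Ctrl past an adjusted p of 0.05 by the quasi-likelihood test of edgeR, and nor did any other of the 15133 genes tested (0.0%). The smallest adjusted p among the 10 genes was 0.602, reached by Zeb1, Runx1 and Tcf4. With TMM scaling the log2 fold change, DTR over Ctrl, was above 0 for all 10, with a median of 0.42, and it was above 0 for 49.6% of all genes tested, whose median was -0.0029. Under other scalings the values are read against the median of all genes. Scaling to fibroblast markers moved that median to -0.43 and put Twist2, Snai2, Zeb2, Runx2 and Tcf4 below 0, with all 10 still above the median. An offset for gene length along the genome put the median at -0.07, Runx2 at -0.02 and Zeb2 at -0.13, so that 9 of the 10 lay above the median. At an unadjusted p under 0.05 in edgeR there were 3 of the 10, Zeb1, Runx1 and Tcf4, all higher in DTR, against 3.81% of all genes in that direction and 7.92% in either. By DESeq2's Wald test none of the 10 had an adjusted p under 0.05, which 0.152% of genes with an adjusted p had. At an unadjusted p under 0.05 DESeq2 gave 4 of the 10, Twist1 besides these 3, all higher in DTR, against 2.93% of all genes in that direction and 4.89% in either. In Runx1 alone the 3 DTR values lay above the 3 Ctrl values, as they did in 6.32% of all genes, and in none of the 10 did they lie below, as in 8.18%. The spread between the replicate libraries and the fold changes are set out in the plots of counts by library and of fold changes with each library left out.

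**Figure D1:**
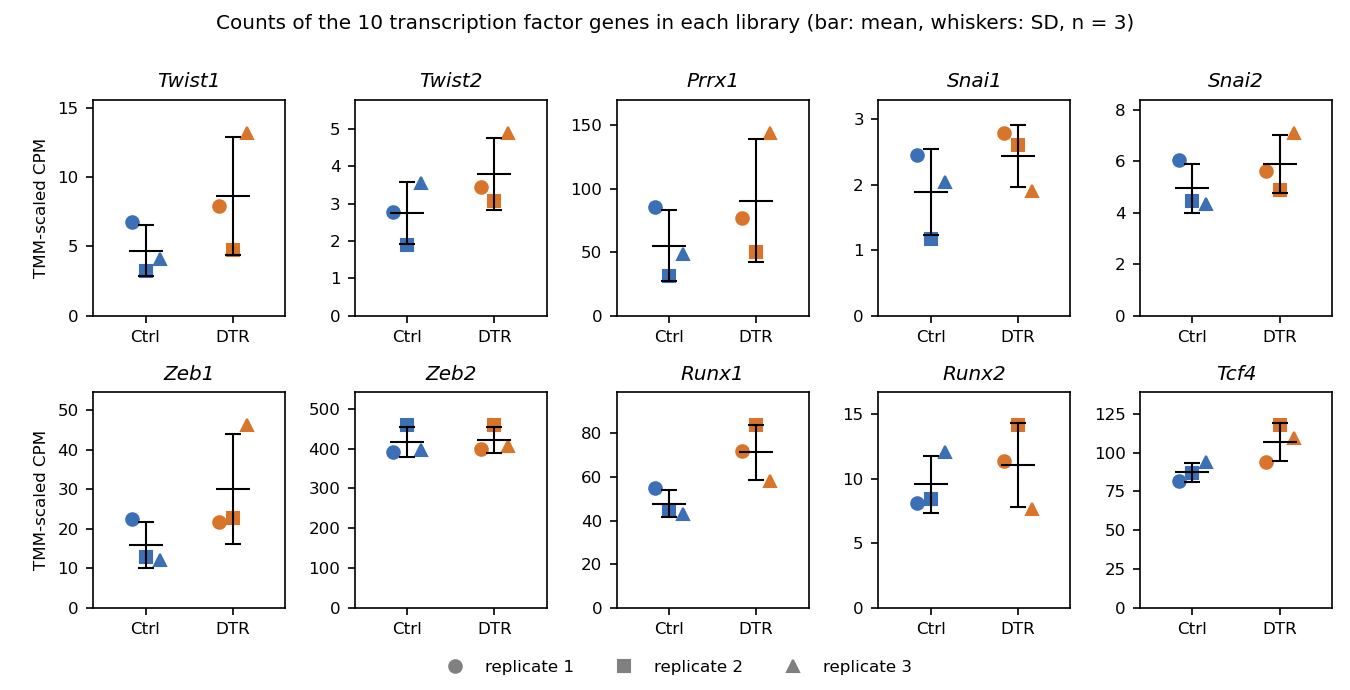
Level of each of the 10 genes (TMM-scaled CPM, linear axes that start at 0) in the 3 Ctrl (blue) and 3 DTR (orange) libraries, with symbol shape for the replicate number, a bar for the mean and whiskers for the SD (n = 3). Only the Runx1 groups do not overlap, and DTR replicate 3 is the highest library for Twist1, Twist2, Prrx1, Snai2 and Zeb1.

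**Figure D2:**
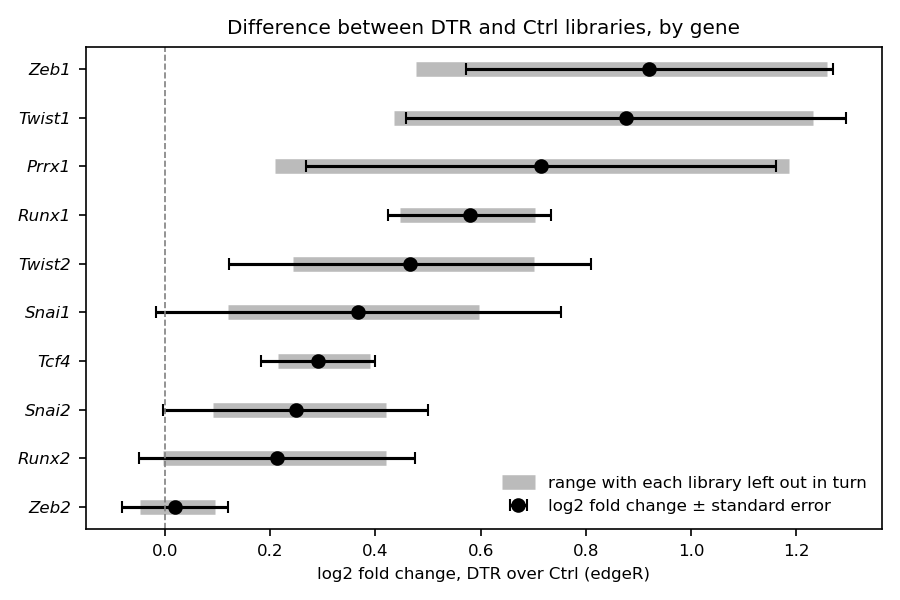
Log2 fold change of each gene, DTR over Ctrl, from edgeR (points) with its standard error (whiskers), and the range reached when each library was left out in turn (gray bars). The bars of Zeb2 and Runx2 cross 0, and Prrx1 spans 0.21 to 1.19.

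Levels are given as CPM, the counts of a gene relative to the total of its library, after TMM scaling, which corrects that total for composition. To compare 1 gene with another, the mean CPM of the Ctrl libraries was divided by the length of the gene, taken from its first to its last annotated base, since reads appear to have been counted over that whole span. On this scale Zeb2 stood first at 3.11 CPM per kb, followed by Twist1 at 2.17, Snai2 at 1.40, Prrx1 at 0.803 and Snai1 at 0.409. Tcf4 followed at 0.253 CPM per kb of span, Runx1 at 0.212, Zeb1 at 0.0866, Twist2 at 0.0588 and Runx2 at 0.0300. Per kb of annotated exon the order differed, with Zeb2 still first at 20.8 CPM, then Prrx1 at 4.97 and Runx1 at 3.96, and with Runx2 at 1.08 and Twist2 at 0.862 last. Zeb2 thus held the first place on either scale, and the place of the long genes Runx1 and Tcf4 depended on which length was used.

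Among the basic helix-loop-helix factors, Twist1, a short gene on chromosome 12 whose mutation in humans causes craniosynostosis, was counted at 6.74, 3.18 and 4.11 CPM in Ctrl replicates 1 to 3 and at 7.91, 4.73 and 13.2 CPM in DTR replicates 1 to 3. The groups overlapped, as Ctrl 1 lay above DTR 2, and DTR 3 was far above the rest. The mean was 4.68 ± 1.84 CPM in Ctrl and 8.61 ± 4.27 CPM in DTR (SD, n = 3). The log2 fold change was 0.88 with a standard error of 0.418, and the difference did not pass the test (edgeR adjusted p = 0.640, two-sided exact permutation p = 0.2). It was 0.44 without DTR 3 and 1.23 without Ctrl 1. These 2 libraries were also the highest in summed fibroblast markers, as described below.

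Twist2, the Twist1 paralog active in dermal fibroblasts, had 2.78, 1.88 and 3.55 CPM in Ctrl and 3.43, 3.06 and 4.90 CPM in DTR. Ctrl 3 lay above DTR 1 and DTR 2, so the groups overlapped. Its log2 fold change of 0.47 ± 0.344 (SE) did not pass the test (edgeR adjusted p = 0.730), and it lay between 0.24 without DTR 3 and 0.70 without Ctrl 3.

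Tcf4, whose protein dimerises with Twist proteins, is a long gene of 346 kb on chromosome 18. It varied least between libraries after Zeb2, with 81.7, 86.6 and 94.0 CPM in Ctrl and 93.9, 118 and 109 CPM in DTR. The groups touched, with DTR 1 just under Ctrl 3, and means of 87.5 ± 6.22 CPM in Ctrl and 107 ± 12.1 CPM in DTR (SD, n = 3). The log2 fold change was 0.29, with a 95% interval from 0.04 to 0.54 (edgeR unadjusted p = 0.0277, adjusted p = 0.602). With the offset for genomic span the fold change of Tcf4 dropped to 0.05 on the log2 scale.

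Prrx1, a homeobox factor of limb and wound fibroblasts, gave 85.8, 30.8 and 48.5 CPM in Ctrl and 77.3, 49.9 and 144 CPM in DTR. Its highest libraries were DTR 3, Ctrl 1 and DTR 1, and its lowest was Ctrl 2, so the groups overlapped across most of their range. The mean was 55.0 ± 28.1 CPM in Ctrl and 90.5 ± 48.5 CPM in DTR (SD, n = 3). The log2 fold change of 0.71 had an interval from -0.32 to 1.75 and did not pass the test (edgeR adjusted p = 0.686). It moved to 0.21 without DTR 3, to 0.43 without Ctrl 2 and to 1.19 without Ctrl 1. In bulk RNA of sorted cells, fewer cells of a type and less RNA per cell cannot be told apart.

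Of the Snail zinc finger repressors, Snai1 was the gene with the lowest counts, between 28 and 96 per library. It measured 2.45, 1.17 and 2.04 CPM in Ctrl and 2.79, 2.61 and 1.90 CPM in DTR. The lowest DTR value lay below 2 of the 3 Ctrl values, and the log2 fold change of 0.37 ± 0.386 (SE) was smaller than its error (edgeR adjusted p = 0.812). Snai2, which encodes the repressor Slug, measured 6.04, 4.44 and 4.32 CPM in Ctrl and 5.61, 4.90 and 7.10 CPM in DTR. Here too the groups overlapped, with DTR 3 and Ctrl 1 on top and a log2 fold change of 0.25 ± 0.252 (SE, edgeR adjusted p = 0.803). Left-out libraries moved the Snai1 log2 fold change between 0.12, without Ctrl 2, and 0.60, without Ctrl 1, and that of Snai2 between 0.09, without DTR 3, and 0.42, without Ctrl 1.

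The Zeb paralogs, zinc finger and homeodomain repressors, differed in both level and spread. Zeb1, of 184 kb on chromosome 18, was counted at 22.5, 13.0 and 12.2 CPM in Ctrl and at 21.6, 22.7 and 46.2 CPM in DTR. Ctrl 1 lay just above DTR 1, and DTR 3 was far above the other libraries. Means were 15.9 ± 5.77 CPM in Ctrl and 30.1 ± 13.9 CPM in DTR (SD, n = 3). Zeb1 had the largest log2 fold change of the 10 genes, 0.92 with an interval from 0.11 to 1.73 (edgeR unadjusted p = 0.0300, adjusted p = 0.602). DESeq2's Wald test gave an adjusted p of 0.332 for Zeb1. The log2 fold change was 0.48 without DTR 3, 1.26 without Ctrl 1 and 0.51 when libraries were scaled to fibroblast markers, beside an all-gene median of -0.43.

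Zeb2 was the most abundant of the 10 genes and the steadiest, with 392, 459 and 396 CPM in Ctrl and 399, 458 and 406 CPM in DTR. The groups covered almost the same range, with Ctrl 2 and DTR 2 highest. The means of 416 ± 37.5 CPM in Ctrl and 421 ± 32.2 CPM in DTR (SD, n = 3) gave a log2 fold change of 0.02, with an interval from -0.21 to 0.25 (edgeR adjusted p = 0.966). Its sign turned when Ctrl 1, Ctrl 3 or DTR 2 was left out, and with the span offset the log2 fold change was -0.13. Zeb2 also acts in the melanocyte lineage, and 12 melanocyte markers were summed beside it. Their sum was highest in Ctrl 2, with 20367 CPM, and lowest in DTR 3, with 16265 CPM. How much of the Zeb2 RNA came from melanoma cells was not tested. The antisense gene Zeb2os had 55, 52 and 50 counts in Ctrl and 88, 37 and 23 counts in DTR, groups that overlapped, with a log2 fold change of -0.36 ± 0.444 (SE, edgeR adjusted p = 0.840).

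Runx1, of 225 kb on chromosome 16, gave the clearest separation. It was counted at 54.8, 45.0 and 43.2 CPM in Ctrl and at 71.6, 83.7 and 58.2 CPM in DTR. Every DTR library lay above every Ctrl library, with 58.2 CPM in DTR 3 as the nearest to the 54.8 CPM of Ctrl 1. The means of 47.7 ± 6.25 CPM in Ctrl and 71.2 ± 12.7 CPM in DTR (SD, n = 3) differed 1.49-fold. The log2 fold change was 0.58 with an interval from 0.22 to 0.94. Its edgeR p of 0.00574 became 0.602 after adjustment over all genes, and the two-sided exact permutation p was 0.1, the smallest that 3 libraries against 3 allow. DESeq2 gave an adjusted p of 0.181 for Runx1, the smallest that any of the 10 genes reached under any alternative. Unlike those of Twist1, Prrx1 and Zeb1, the Runx1 values were not led by DTR 3, which was its lowest DTR library, and the log2 fold change stayed between 0.45 and 0.70 with each library left out. It was 0.38 with the span offset and 0.29 with scaling to fibroblast markers, beside all-gene medians of -0.07 and -0.43, and under each of these the groups overlapped.

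Runx2, the regulator of osteoblast fate, had 8.17, 8.46 and 12.1 CPM in Ctrl and 11.4, 14.2 and 7.67 CPM in DTR. DTR 3 was the lowest of all 6 libraries and DTR 2 the highest, so the DTR values enclosed those of Ctrl. The log2 fold change of 0.21 had an interval from -0.39 to 0.82 (edgeR adjusted p = 0.842), and it turned to -0.02 with the span offset. It was 0.42 without DTR 3 and 0.42 without Ctrl 3, but 0.11 without Ctrl 1, 0.13 without Ctrl 2 and -0.0038 without DTR 2. Runx2os1, an antisense gene within Runx2, held 8, 15 and 20 counts in Ctrl and 7, 4 and 2 counts in DTR, too few to pass the filter. The antisense genes Runx2os2 and Runx2os3 were at 0 counts in all 6 libraries.

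The balance within each paralog pair was compared as the ratio of their counts in the same library, which does not depend on library scaling. Runx1 counts exceeded Runx2 counts by 6.70, 5.31 and 3.57 times in Ctrl and by 6.27, 5.90 and 7.57 times in DTR. Zeb1 counts were 0.0575, 0.0283 and 0.0308 of Zeb2 counts in Ctrl and 0.0541, 0.0495 and 0.114 in DTR. The ratio of Zeb1 to Zeb2 was thus highest in DTR 3, and Ctrl 1 lay above DTR 1 and DTR 2. Twist1 counts were 2.42, 1.68 and 1.16 times those of Twist2 in Ctrl and 2.30, 1.55 and 2.69 times in DTR. Snai1 counts were 0.407, 0.268 and 0.474 of Snai2 counts in Ctrl and 0.499, 0.534 and 0.269 in DTR. In all 4 pairs the groups overlapped. The difference of mean log2 ratios, DTR minus Ctrl, was largest for Zeb1 to Zeb2, at 0.87, and the exact permutation p, two-sided, ran from 0.3 to 0.5 over the 4 pairs, each 0.5 after Benjamini-Hochberg adjustment. The Zeb difference was 0.49 without DTR 3. The Snai1 to Snai2 difference of 0.16 turned negative without Ctrl 2 or DTR 2.

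**Figure D3:**
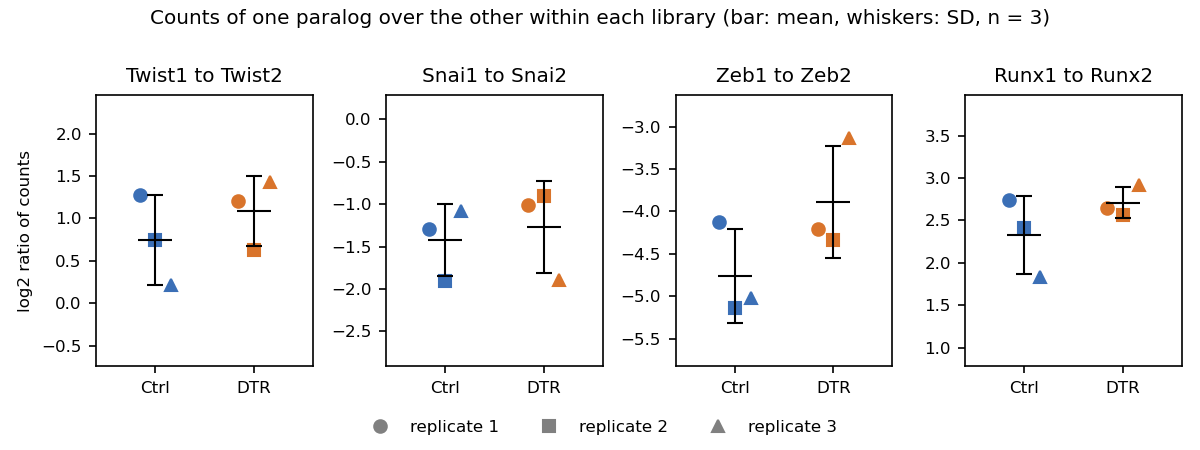
Log2 ratio of the counts of each paralog to those of its partner within each library (vertical axes in log2 units, not starting at 0) for 3 Ctrl (blue) and 3 DTR (orange) libraries, with a bar for the mean and whiskers for the SD (n = 3). The groups overlap in all 4 pairs, and DTR replicate 3 has the highest Zeb1 to Zeb2 ratio, -3.13.

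Of the 10 genes 3, Twist1, Prrx1 and Snai2, each had their 3 highest values in Ctrl 1, DTR 1 and DTR 3. How many of all genes did so was not counted. Ctrl 1, DTR 1 and DTR 3 were also the 3 highest libraries for the sum of 12 fibroblast markers. That sum was 13938, 5360 and 5342 CPM in Ctrl and 11153, 5755 and 14860 CPM in DTR. Of it, Col3a1 alone held 6258, 2581 and 2567 CPM in Ctrl and 5393, 2708 and 7600 CPM in DTR. Col1a1 held 4289, 1495 and 1313 CPM in Ctrl and 3022, 1537 and 3023 CPM in DTR. The sum, and the scaling to these markers given below, thus largely follow collagen RNA. Of these 12 markers 11 were higher in DTR, from -0.19 for Pdgfrb to 1.29 for Dpt, with a median log2 fold change of 0.43 beside the 0.42 of the 10 genes. Dpt was at 0.44 without DTR 3. The fibroblast median was 0.99 without Ctrl 1 and 0.08 without DTR 3, and none of the markers passed the edgeR test. Because the fibroblast sums fell into separate clusters, no correlation was computed. Runx1 and Runx2 were highest in DTR 2, where the fibroblast sum was low, and Zeb2 was highest in Ctrl 2 and DTR 2. Averaged over the 10 genes, the log2 deviation from the mean of the 6 libraries was 0.03, -0.51 and -0.21 in Ctrl and 0.18, 0.11 and 0.42 in DTR. The part of the fibroblast content of a library in these levels was not tested. When libraries were instead scaled to the fibroblast markers, a choice made after seeing the data, the median of all genes shifted to -0.43 and the median of the 10 genes was 0.02, with log2 fold changes from -0.40 for Zeb2 to 0.51 for Zeb1. None of the 10 then had an unadjusted p under 0.05 in edgeR, which only 0.952% of all genes had.

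**Figure D4:**
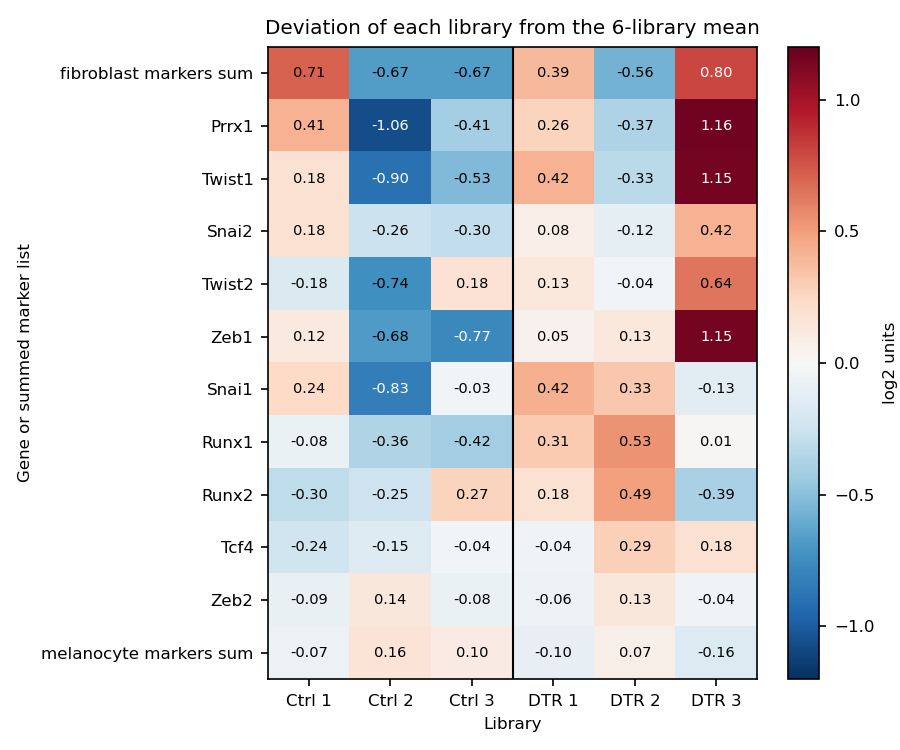
Deviation of each library (columns) from the mean of the 6 libraries, in log2 units, for the 10 genes and for the summed fibroblast and melanocyte markers (rows), with red for higher and blue for lower and the value printed in each cell. Prrx1, Twist1 and Snai2 are positive in the libraries where the fibroblast sum is positive, and Runx1 is highest in DTR 2, where that sum is at -0.56.

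The libraries held other cells' transcripts beside those of stroma. In every library the sum of melanocyte markers was larger than that of fibroblast markers. It was 20367 against 5360 CPM in Ctrl 2 and 16265 against 14860 CPM in DTR 3. The sorting markers Pdgfra and Pdpn did not pass the test, with log2 fold changes of 0.29 and 0.37. Without DTR 3 these were -0.026 and 0.07, and without Ctrl 1 they were 0.83 and 0.63. Adam12, whose promoter drives the transgene, had 216, 181 and 175 CPM in Ctrl and 165, 151 and 112 CPM in DTR, so that the groups did not overlap, with a log2 fold change of -0.42 ± 0.154 (SE, edgeR adjusted p = 0.602). Adam12 RNA thus remained in the DTR libraries, and how far ADAM12+ cells were depleted in them was not tested. The melanocyte sum ran from 17364 to 20367 CPM in Ctrl and from 16265 to 19191 CPM in DTR, with 9 of 11 tested markers lower in DTR, from -0.28 for Sox10, whose groups did not overlap, to 0.05 for Mlana. The sum of 12 macrophage markers was 127 to 213 CPM in Ctrl and 148 to 159 CPM in DTR, with 7 of 11 lower, from -0.57 for Mrc1, whose groups did not overlap, to 0.31 for Adgre1, which was at 1.02 without Ctrl 2. In turn 8 of 9 T and NK cell markers were lower, at 7.64 to 54.5 CPM in Ctrl and 16 to 23.6 CPM in DTR. The median log2 fold change of the T and NK cell markers was -0.57, and it was 0.18 without Ctrl 2 and -1.04 without Ctrl 1, with Cd3d lowest at -1.23, its groups not overlapping, and Trac highest at 0.02 (1.14 without Ctrl 2). Of 10 endothelial markers 5 were tested and 4 were higher, and their sum was 27.0 to 34.5 CPM in Ctrl and 33.6 to 100.4 CPM in DTR, although Tie1, Emcn, Cldn5 and Egfl7 had at most 3 counts in every library. Tek had 62.9 CPM in DTR 3 and a log2 fold change of 1.84, which was 0.42 without that library. Vwf, whose DTR values all lay above its Ctrl values, was at 0.51, and Cdh5, which encodes the cadherin of endothelial junctions, was at -1.53 ± 0.957 (SE), with 0.816 CPM in Ctrl and 0.270 CPM in DTR, and at -0.93 without Ctrl 3 and -2.53 without DTR 1. Of 9 pericyte markers 6 were tested and 5 were lower, with a sum of 52.3 to 81.6 CPM in Ctrl and 42.7 to 52.6 CPM in DTR, from -1.02 ± 0.334 (SE) for Cspg4, whose groups did not overlap, to 0.39 for Myh11 (1.32 without Ctrl 2, -0.22 without DTR 1). Of these markers Sox10, Mrc1, Cd3d, Vwf, Tek and Cspg4 had an unadjusted p under 0.05 in edgeR and none an adjusted one. Of all genes tested, 7.92% had such an unadjusted p in either direction, and in 14.5% the groups did not overlap. Whether these cells contributed to the levels of the 10 transcription factors was not tested.

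Gene length along the genome moved with the comparison. The median log2 fold change was -0.07 over genes shorter than 10 kb, of which 40.2% were above 0, and 0.19 over genes longer than 300 kb, of which 72.2% were above 0. Zeb2 and Zeb1 lay among the genes of 100 to 300 kb, whose median was 0.08, and so did Runx1, while Runx2 and Tcf4 lay over 300 kb. Against the medians of their own span ranges, Runx2, Zeb2 and Tcf4 stood closest to the rest and Twist1, a gene of 2.16 kb, stood farthest above. With a per-library offset for span, Twist1 was at 0.90, Zeb1 at 0.73, Prrx1 at 0.61 and Runx1 at 0.38 on the log2 scale. The part of span in the differences was not tested beyond this offset.

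**Figure D5:**
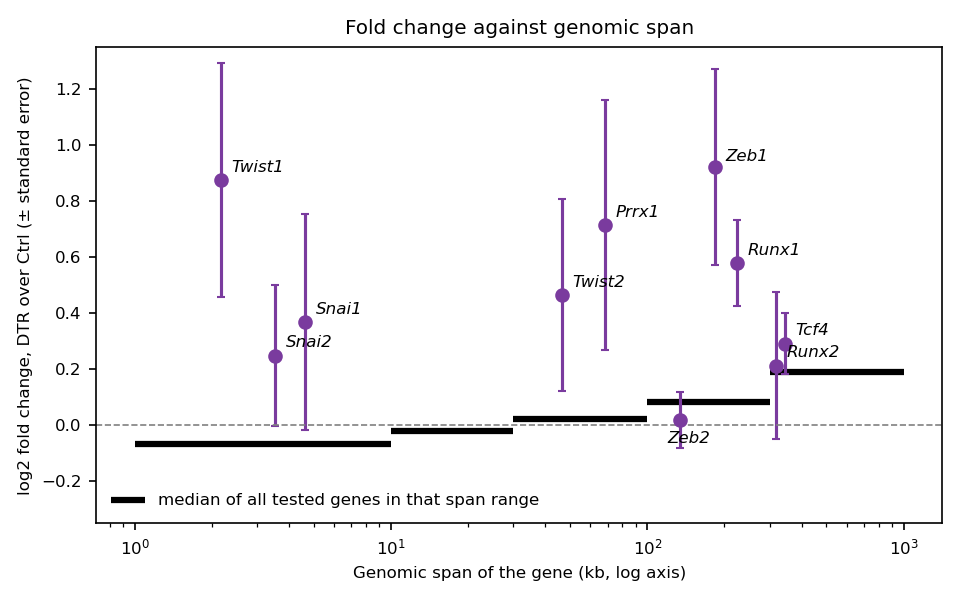
Log2 fold change, DTR over Ctrl, of the 10 genes (points, with standard errors as whiskers) against their genomic span in kb (log axis), with black bars for the median of all tested genes in each span range (the outer bars also cover genes beyond the axis). The medians run from -0.07 under 10 kb to 0.19 over 300 kb, and Twist1, Zeb1 and Prrx1 lie farthest above them.

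The proteins with which these factors bind DNA or repress genes gave no common direction. Of 15 partner genes 14 were tested, 6 higher and 8 lower in DTR, with a median log2 fold change of -0.06. Tcf3, which encodes the E proteins E12 and E47, had 63.3, 58.1 and 57.6 CPM in Ctrl and 56.1, 42.5 and 48.6 CPM in DTR. Its groups did not overlap, and its log2 fold change of -0.28 ± 0.120 (SE) had an edgeR p of 0.0473, which is 0.623 after adjustment. Tcf12, the third E protein gene, had 408 ± 21.7 CPM in Ctrl and 411 ± 51.3 CPM in DTR (SD, n = 3). Cbfb, the shared partner of Runx proteins, had a log2 fold change of 0.08 ± 0.103 (SE).

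The genes of the Id proteins, which sequester E proteins, gave 0.10 for Id3 (-0.55 without DTR 3), -0.06 for Id2 and 1.34 for Id1 on the log2 fold change scale. Id1 counts were only 8, 5 and 3 in Ctrl and 17, 15 and 15 in DTR, groups that did not overlap (edgeR adjusted p = 0.630). The corepressor genes Tle3, Ctbp1, Hdac1, Rcor1 and Kdm1a lay between -0.19 and -0.06, and Hdac2 and Tle1 at 0.07 and 0.16. None of these corepressors had an unadjusted p under 0.05 in edgeR. Ctbp2 gave -1.21, but 99.3% of its span is shared with other genes on its strand, where reads appear not to have been assigned, so it cannot be read here. Of 11 family relatives only Prrx2, at -0.59 ± 0.387 (SE), and Runx3, at -0.08 ± 0.405 (SE), had enough counts to be tested. Prrx2 was at -0.94 without DTR 1 and -0.34 without Ctrl 3, and Runx3 at -0.41 without Ctrl 1 and 0.15 without Ctrl 3.

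Of 28 other mesenchymal transcription factors 19 were tested, 15 higher and 4 lower in DTR, with a median log2 fold change of 0.41 beside the 0.42 of the 10 genes. Ebf1, an early adipocyte and B cell factor also made by fibroblasts, had 48.8, 24.6 and 31.3 CPM in Ctrl and 71.2, 56.7 and 131 CPM in DTR. The Ebf1 groups did not overlap and its log2 fold change was 1.30 ± 0.348 (SE), with an edgeR p of 0.00574 and an adjusted p of 0.602. Its paralog Ebf2 had 11.6, 4.65 and 4.75 CPM in Ctrl and 16.5, 9.27 and 27.2 CPM in DTR, groups that overlapped through Ctrl 1, and a log2 fold change of 1.34 ± 0.471 (SE, edgeR adjusted p = 0.602). Gli1, a target and effector of Hedgehog signalling, had 15, 15 and 13 counts in Ctrl and 7, 3 and 2 counts in DTR (log2 fold change -2.05, edgeR adjusted p = 0.602). Tbx5 gave the highest log2 fold change of the list, 1.75 ± 1.10 (SE), on 0 to 25 counts, and it was 3.99 without Ctrl 1 and 1.16 without Ctrl 3. The list median was 0.87 without Ctrl 1 and 0.26 without DTR 3.

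Target genes of these factors also did not pass the test. Of 22 epithelial genes 13 were tested, 8 higher and 5 lower in DTR, with a median log2 fold change of 0.02. Cdh1, which encodes E-cadherin and is the classic target of Snail and Zeb repression, had 5.26 ± 0.803 CPM in Ctrl and 5.33 ± 0.331 CPM in DTR (SD, n = 3). The list ran from -0.87 for Esrp1 to 1.14 for Krt19. Esrp1 was at -1.86 without DTR 2 and -0.44 without DTR 3, and Krt19 at 2.05 without Ctrl 1 and 0.56 without DTR 3. All 16 mesenchymal EMT genes were tested, 10 higher and 6 lower, with a median of 0.06. They ran from -1.31 for Acta2, the smooth muscle actin of contractile fibroblasts, to 1.15 for the matrix protease gene Mmp2, with edgeR adjusted p of 0.631 and 0.630. Mmp2 was at 0.34 without DTR 3 and 1.58 without Ctrl 1, and Acta2 at -1.91 without DTR 2 and -0.81 without Ctrl 1. Vim, which encodes vimentin and was named after its values were seen, was the only gene of the list whose groups did not overlap, with 2440, 1986 and 2077 CPM in Ctrl and 1958, 1673 and 1983 CPM in DTR. Its log2 fold change was -0.21 ± 0.118 (SE, edgeR adjusted p = 0.661).

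Of 10 bone genes downstream of Runx2, 4 were tested and 3 were lower in DTR. Spp1, which encodes osteopontin, had 200.1, 112 and 237 CPM in Ctrl and 79.4, 123 and 101 CPM in DTR, groups that overlapped through Ctrl 2. Its log2 fold change was -0.85 ± 0.271 (SE, edgeR adjusted p = 0.602), and 21.1% of its span is shared with another gene on its strand. All 9 TGF-β response genes were tested, 5 higher and 4 lower, with a median of 0.14 and a range from -0.93 for Ltbp2, at -0.18 without Ctrl 1 and -1.52 without DTR 2, to 0.28 for Pmepa1. Pmepa1 was at 0.03 without Ctrl 2 and 0.73 without Ctrl 1.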

How the data were processed

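The authors trimmed, aligned and counted the reads per gene. The submitters' processing notes name featureCounts 2.0.1, STAR 2.7.3a, cutadapt 3.4 and DESeq2, with GRCm38. Libraries were stranded total RNA (SMARTer Pico). The deposited raw counts of the 6 libraries were used. The deposited score, a raw count divided by a DESeq2 size factor and rounded, was not used, nor were the authors' comparison columns (fold changes, p-values, dispersions and Cook's distances).

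The counted feature was read from the table. Of protein-coding genes that lie wholly inside another gene, 0 of 371 on the same strand and 295 of 531 on the opposite strand had 10 or more counts, so reads were taken as counted over the whole gene, with strand, and as not assigned where genes on a strand overlap. Of the 10 genes, the largest overlapped share of a span was 5.98%, in Prrx1. Spans and exons are from GENCODE M21.

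Library totals ran from 22339635 to 34271929 counts, at which 3 counts are 0.0875 to 0.134 CPM, a floor that covers counting error only. Genes were kept by edgeR's filterByExpr (minimum count 10, total 15), scaled by TMM and tested with the quasi-likelihood test (glmQLFit, glmQLFTest, two-sided, no covariate) with Benjamini-Hochberg adjustment over all 15133 genes. Dividing each log2 fold change by the root of its F gave the standard error. Ratios of paralogs used a prior of 0.5 counts. R 4.3.3, edgeR 4.0.16, DESeq2 1.42.0, Python 3.11.15, SciPy 1.17.1 and matplotlib 3.10.9 were used. The edgeR fit was tested on simulated counts with a dispersion (spread between replicates) below the common 0.0662 of these data. That test does not show how the fit performs at the spread seen here.

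The genes and lists were chosen with earlier results of these data known. Named are the 10 genes, Adam12, Pdgfra, Pdpn, the tested partners and relatives, genes antisense to the 10 and, in other lists, the lowest and highest log2 fold change and any unadjusted p under 0.05, except for 1 result that is not reported here. Cdh1, Vim, Tie1, Emcn, Cldn5 and Egfl7 were named outside this rule, after their values were seen. Keratinocyte, Schwann cell, skeletal muscle, neutrophil and adipocyte markers were also counted. Alternatives were other size factors, other filters, DESeq2, a replicate block, a loess offset on span (0.5), each library left out, a prior of 1 count and, added after seeing the data, scaling to 12 fibroblast markers. Libraries with the same number correlated at 0.114, 0.132 and -0.042 in their deviations, so the numbers were not taken as pairs.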

Additional observations from a re-analysis of the deposited data

How the results depend on the processing

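Of the 140 log2 fold changes of the 10 genes under alternatives, 129 kept their direction and their side of the threshold and 11 turned negative. The span offset turned Zeb2 to -0.13 and Runx2 to -0.021, and left 1 gene of the 10 at an unadjusted p under 0.05 (9.64% of all genes) and 0 with groups that did not overlap (16.7%). Scaling to fibroblast markers turned Twist2 to -0.054, Snai2 to -0.18, Zeb2 to -0.40, Runx2 to -0.15 and Tcf4 to -0.13, with a median over the 10 genes of 0.021, 0 at an unadjusted p under 0.05 (0.952% of all genes), 0 without overlap (2.02%, either direction), and 2 of all genes past the adjusted threshold. DESeq2's Wald test put 31 genes past that threshold, none of them among the 10, against 0 for edgeR's quasi-likelihood test, with 1199 at an unadjusted p under 0.05. Testing every gene with a count gave 5 of the 10 at an unadjusted p under 0.05 (6.76% of all genes). DESeq2-type size factors in edgeR and a filter of 10 counts in every library each gave 2 of the 10 without overlap (14.3% and 14.7% of all genes). The causes of these shifts were not tested. Scaling to fibroblast markers lowered the all-gene median to -0.43, but genes did not shift equally. Runx1 went down to 0.29, against 0.58 under TMM, and Twist2 to -0.054, against 0.47 under TMM.

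With each library left out in turn, all genes past the adjusted threshold numbered 0 to 2 (2 without Ctrl 1), the 10 genes at an unadjusted p under 0.05 numbered 1 to 4 (1 without Ctrl 2 or DTR 3), against 5.21% to 10.2% of all genes, and those without overlap 2 to 5, against 23.0% to 28.8% of all genes. Zeb2 ran from -0.047 to 0.095, with -0.022 without Ctrl 1 and -0.012 without Ctrl 3, and Runx2 from -0.0038 to 0.42. The Snai1 to Snai2 difference ran from -0.080 to 0.47 and was -0.023 without DTR 2. A replicate block gave 0 genes past the adjusted threshold, 4 of the 10 at an unadjusted p under 0.05 (8.40% of all genes) and 0.57 for Runx1, and it changed no other call, but the libraries share only a number. Depth limits Snai1 most, with 28 counts in Ctrl 2.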

Other observations

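Markers of further cell types were also summed. The 9 keratinocyte markers summed to 3.72 to 5.87 CPM over all libraries, with 3 tested, whose log2 fold changes had a median of -0.06 (-0.51 with every counted gene) and ran from -0.34 for Perp to 0.46 for Krt10 (1.61 without Ctrl 1), and the 6 skeletal muscle markers to 3.93 to 4.97 CPM, with 3 tested, from -0.87 for Mylpf to 0.50 for Tnnt3 (1.09 without Ctrl 2), and a median of 0.42, which was -0.28 without Ctrl 1 or Ctrl 2, -0.08 without DTR 2, -0.13 without DTR 3 and -0.77 with every counted gene. The 8 markers of neutrophils, which carry CD45 and which the gate should remove, summed to 1.34 to 7.72 CPM, with only Csf3r tested, at -0.77, and a list median between -2.21 without Ctrl 2 and -0.13 without Ctrl 1. The 5 adipocyte markers summed to 0.0966 to 2.90 CPM, with only Fabp4 tested, at -1.15, and a list median of 0.30 without Ctrl 1 and -0.59 without DTR 2. The 7 Schwann cell markers summed to 238 to 366 CPM, of which S100b made up 107 to 207 CPM. S100b is also made by melanoma cells. The 5 tested Schwann cell markers had a median log2 fold change of -0.11, from -0.17 for S100b to 0.90 for Ngfr. Their part in the levels of the 10 transcription factors was not tested.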
